A study of Rattus norvegicus with 12 samples.

Results

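The drug main effect compared lungs with and without SEW-2871, an agonist of the sphingosine 1-phosphate receptor S1P1, over both strata of a factorial experiment with brain death as the second factor. It was taken as the mean of 2 differences, SEW minus sham and BD/SEW minus BD, and it used all 12 arrays of the study, 6 with and 6 without the agonist. The arrays measured lung tissue RNA of wild-type male Sprague Dawley rats of 250 to 350 g, with 3 arrays in each of the 4 groups. Sham animals received neither brain death nor the agonist. BD animals underwent brain death, for which a balloon catheter was inflated in the extradural space. SEW animals were injected with 0.1 mg/kg of the agonist, while BD/SEW animals received it 15 min after brain death. Whether SEW animals were operated on is not stated in the labels. No label ties arrays to numbered animals, so p-values measure only the spread between these samples, which may be technical. Values are log2 expression values, and a difference of 1 is a 2-fold difference. Whole lung was measured, so fewer cells of a type and less RNA per cell cannot be told apart.

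Sphingosine 1-phosphate is a lipid mediator made by sphingosine kinases, carried in blood and read by a family of G protein-coupled receptors. S1P1, encoded by S1pr1, is abundant on lung endothelium, where its signalling through Gi and Rac strengthens cell junctions, and on lymphocytes, where it guides exit from lymphoid organs. Agonists of S1P1 are known for limiting vascular leak in the lung and for lowering the number of lymphocytes in blood.

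The tissue on the arrays was lung: Sftpc, the surfactant protein C gene of alveolar type 2 cells, lay between 14.32 and 14.67 on all 12 arrays. Some arrays also held more transcripts of cardiac muscle and adipose markers. Cardiac muscle markers, 21 of which were measured, averaged 9.99, 9.50 and 9.03 in sham replicates 1 to 3 and 10.94 in BD replicate 2. On the other 8 arrays, which include all 6 with the agonist, they averaged 5.74 to 7.67. The mean of 16 adipose markers was 8.53 to 9.31 in sham and 8.90 in BD replicate 2, against 6.82 to 7.46 elsewhere. The arrays with the highest cardiac and adipose signal were therefore all arrays without the agonist, in both strata. SEW replicate 2 stood apart in chaperone genes, with a mean of 12.34 for 15 of them against 10.28 to 10.57 elsewhere. The fit with array weights gave the lowest weights to sham replicate 3 (0.247) and to that array (0.318).

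**Figure D1:**
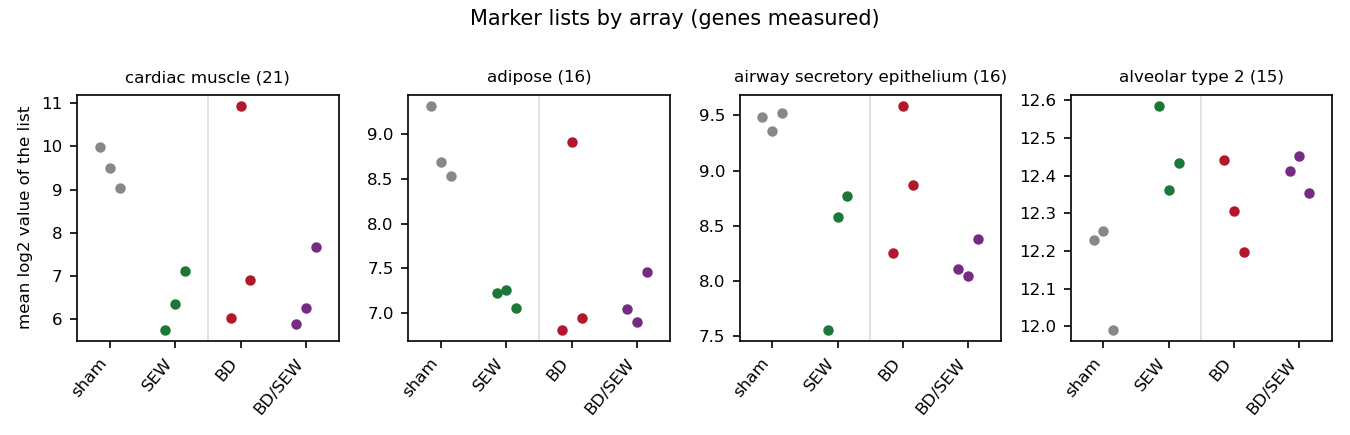
Mean log2 value of 4 marker lists on each array (points) by group, with the number of genes measured in each list in the panel titles. The cardiac mean is 9.03 or more on the 3 sham arrays and on BD replicate 2 and at most 7.67 on every other array, and the alveolar type 2 means lie between 11.99 and 12.59.

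A small set of genes passed in the main effect, and fewer of them moved the same way with and without brain death. Of 14217 genes tested, 20 were called at an adjusted p under 0.05 (0.141%), 10 higher (0.0703%) and 10 lower (0.0703%) with the agonist (limma, Benjamini-Hochberg adjustment over all genes). In 11 of the 20 the 2 strata had the same sign, 9 higher and 2 lower. In the other 9 the strata had opposite signs. With the arrays centred on their medians 24 genes were called, 13 of them with the same sign, 9 higher and 4 lower. Tm6sf1, Rmnd5b, Tmem204, Pdlim2, Icam2, Stard8, Tor4a, Tcta and Krt19 were higher with the agonist, by 0.40 to 0.77 log2 units, and Prss22 and Znrf1 were lower. Without adjustment 2844 genes had a p under 0.05. At a looser adjusted p under 0.1 there were 537 genes (3.78%), of which 485 had the same direction, 347 higher and 138 lower.

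All 11 genes of the same direction were called in SEW against sham (830 genes, 5.84%), and none of the 11 was called in BD/SEW against BD (2 genes, 0.0141%). In the latter comparison limma gave 5 of the 11 an unadjusted p under 0.05. The difference was larger without brain death for all 11. Its size ran from 0.55 to 2.43 in SEW against sham and from 0.06 to 0.38 in BD/SEW against BD, with median differences of 0.87 and 0.25. The interaction, which tests whether the 2 strata differ, was called for Prss22 and Znrf1 and for none of the 9 genes that were higher. For these 9 the limma interaction p ran from 0.000636 (Stard8) to 0.0369 (Krt19) without adjustment. With adjustment it ran from 0.0567 to 0.363. Over all 14217 genes 1771 had an unadjusted interaction p under 0.05.

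**Figure D2:**
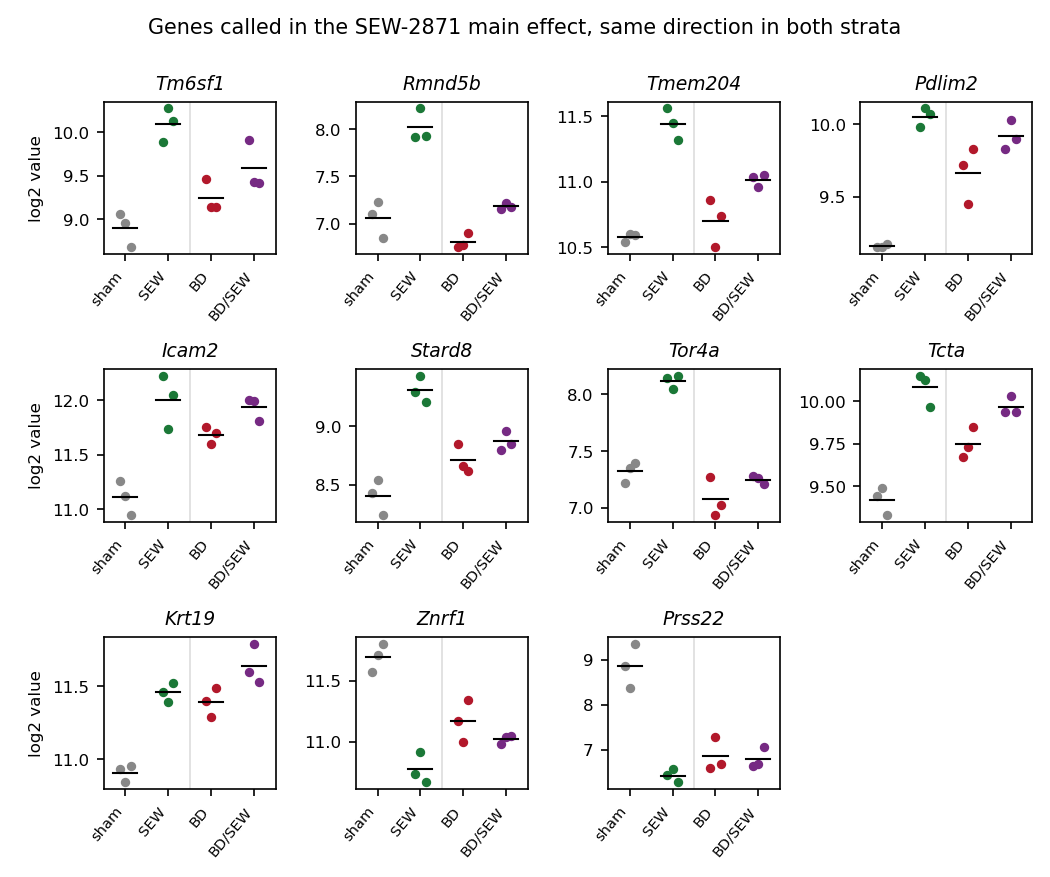
Log2 values on each of the 12 arrays (points, with group means as bars) for the 11 called genes whose difference had the same sign in both strata, each panel on its own scale. The SEW points lie clear of the sham points in all 11 panels, whereas BD/SEW and BD points overlap in 6 of them, as for Pdlim2, where BD replicate 3 at 9.83 equals BD/SEW replicate 1.

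Of the 11 genes, Tmem204 and Icam2 are known from cell junctions and the endothelial surface. Tmem204 encodes a claudin-like membrane protein found at cell junctions. Its values were 10.54, 10.60 and 10.59 in sham and 11.56, 11.45 and 11.32 in SEW. They were 10.86, 10.50 and 10.74 in BD and 11.04, 10.96 and 11.05 in BD/SEW, so the agonist arrays lay above their controls in each stratum. The main effect was 0.59 ± 0.07 (SE, 6 arrays a side, adjusted p = 0.0245), with 0.87 without brain death and 0.32 after it.

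Icam2 encodes an adhesion molecule that resting endothelium carries and that binds leukocyte integrins. It read 11.26, 11.12 and 10.95 in sham and 12.22, 11.74 and 12.05 in SEW. In the brain-death stratum it read 11.75, 11.60 and 11.70 in BD and 12.00, 11.99 and 11.81 in BD/SEW. Again no array with the agonist overlapped an array without it in the same stratum, although the sham and BD groups themselves stood apart. The difference was 0.89 and 0.25 in the 2 strata, and the main effect 0.57 ± 0.09 (adjusted p = 0.0368). The second probe set of Icam2, which is dimmer, gave 0.82 and 0.27 and was not called over all probe sets (adjusted p = 0.158).

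Stard8 encodes a protein with a lipid-binding START domain. Its values were 8.43, 8.54 and 8.24 in sham, 9.29, 9.43 and 9.21 in SEW, 8.85, 8.66 and 8.62 in BD, and 8.80, 8.96 and 8.85 in BD/SEW. SEW stood apart from sham, while BD replicate 1 lay level with BD/SEW replicate 3. The main effect of 0.53 ± 0.08 (adjusted p = 0.0329) thus joins 0.91 without brain death and 0.16 after it.

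The products of 3 other genes act in ubiquitin transfer, and they went both ways. Rmnd5b encodes a subunit of the CTLH ubiquitin ligase. It was 7.10, 7.23 and 6.85 in sham, 7.92, 8.22 and 7.93 in SEW, 6.75, 6.77 and 6.90 in BD, and 7.15, 7.22 and 7.18 in BD/SEW. The arrays did not overlap in either stratum, and at 0.38 this was the largest difference after brain death among the 11 genes. Its main effect was 0.67 ± 0.09 (adjusted p = 0.0245).

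Pdlim2 encodes a PDZ and LIM domain protein that promotes the degradation of the NF-kappa-B subunit p65. It was 9.15, 9.15 and 9.17 in sham and 9.98, 10.11 and 10.07 in SEW, a difference of 0.90. The BD values, 9.72, 9.45 and 9.83, touched the BD/SEW values, 9.83, 10.03 and 9.90. The main effect was 0.58 ± 0.08 (adjusted p = 0.0256).

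Znrf1, a ubiquitin ligase gene with a RING finger, went the other way. It was 11.57, 11.71 and 11.80 in sham against 10.74, 10.92 and 10.67 in SEW, and 11.17, 11 and 11.34 in BD against 10.98, 11.04 and 11.05 in BD/SEW. The groups stood apart without brain death and overlapped after it. The main effect was -0.53 ± 0.08 (adjusted p = 0.0301), made of -0.92 and -0.15, and the interaction was called (0.77 ± 0.15, adjusted p = 0.0393). The other 2 probe sets of Znrf1 had no shared direction, unlike the one used: they gave -0.63 and -1.31 without brain death and 0.08 and 0.24 after it.

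Of the 2 called genes known from epithelium, 1 was higher and 1 lower. Krt19, a keratin of simple epithelia, was 10.93, 10.84 and 10.95 in sham, 11.46, 11.39 and 11.52 in SEW, 11.40, 11.29 and 11.49 in BD, and 11.60, 11.79 and 11.53 in BD/SEW. Agonist arrays were above their controls in both strata, by 0.55 and 0.25, and the main effect of 0.40 ± 0.06 (adjusted p = 0.0446) was the smallest of the called genes. Prss22 encodes a serine protease of airway epithelium. It was 8.85, 8.36 and 9.35 in sham and 6.44, 6.56 and 6.27 in SEW, but 6.58, 7.29 and 6.69 in BD and 6.64, 6.68 and 7.06 in BD/SEW. SEW, BD and BD/SEW were all lower than sham, and after brain death the agonist groups overlapped. The main effect of -1.25 ± 0.17 (adjusted p = 0.0301) therefore held -2.43 in SEW against sham and -0.06 in BD/SEW against BD (interaction 2.37 ± 0.35, adjusted p = 0.0106), and with the cardiac mean as a covariate Prss22 no longer had the same sign in both strata.

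The last group were membrane-protein genes of less studied function. Tm6sf1, a gene of a multi-pass membrane protein, was 9.06, 8.96 and 8.68 in sham, 9.88, 10.27 and 10.13 in SEW, 9.46, 9.14 and 9.14 in BD, and 9.91, 9.43 and 9.41 in BD/SEW. With 0.77 ± 0.12 (adjusted p = 0.0368) it had the largest increase of the called genes, 1.19 without brain death and 0.34 after it, where the arrays overlapped. Tcta, named for a translocation in T cell leukaemia, was 9.44, 9.49 and 9.33 in sham, 10.15, 10.13 and 9.97 in SEW, 9.67, 9.73 and 9.85 in BD, and 9.94, 10.03 and 9.94 in BD/SEW. Its arrays did not overlap in either stratum (0.66 and 0.22, main effect 0.44 ± 0.07, adjusted p = 0.0304). Tor4a, of the torsin family of ATPases, was 7.22 to 7.40 in sham, 8.05 to 8.16 in SEW, 6.94 to 7.27 in BD and 7.21 to 7.28 in BD/SEW. Only its SEW arrays stood apart, and the main effect was 0.48 ± 0.08 (adjusted p = 0.0370).

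The calls lay near the threshold. When each array was left out in turn, 6 of the 12 fits called no gene (smallest adjusted p 0.054 to 0.126, with 2112 to 2819 genes at an unadjusted p under 0.05 over all 12 fits). These were the fits without sham replicate 1, BD replicate 3, SEW replicate 1 or any BD/SEW replicate. Fewer than 20 genes were called without sham replicate 3 (4 genes) or sham replicate 2 (5 genes). More were called without SEW replicate 3 (31), BD replicate 1 (38), SEW replicate 2 (52) or BD replicate 2 (64). Tmem204 and Rmnd5b were called in 6 of the 12 fits each, and Krt19 in 2, while their main effects ran from 0.54 to 0.63, from 0.62 to 0.71 and from 0.36 to 0.43. With the cardiac mean as a covariate no gene was called (974 at an unadjusted p under 0.05), and with the adipose mean none either (1212). Rmnd5b had a main effect of 0.67 with the cardiac covariate as without it, and Tcta of 0.43 against 0.44, whereas Tmem204 had 0.45 against 0.59 and Prss22 -0.97 against -1.25. The direction of the main effect held in all of these fits for the 11 genes, and with the cardiac covariate 10 of the 11 kept the same sign in both strata. BD replicate 2, the BD array with the highest cardiac mean, was the lowest BD array for 6 of the 9 genes that were higher. For Tm6sf1, counted among the 6, BD replicate 3 had the same value. What part the RNA behind the cardiac and adipose markers had in these differences was not tested.

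Promoter sequences are shown for the called genes whose promoters held a motif of transcription factors that act in endothelium. RefSeq promoters of assembly GRCr8 matched 12 of the 20 called genes, 6 of each kind. A kappa-B motif, the binding sequence of NF-kappa-B, and the ETS motif CCGGAAG were searched on both strands in the 250 bases before each gene's start. The kappa-B motif stood in 1 of the 6 genes of the same direction, Znrf1, and in 1 of the 6 of opposite directions, Vcam1, against 6.33% of all 33469 promoters. The ETS motif stood in 2 of 6, Rmnd5b and Tcta, and in 0 of 6, against 7.27%. The KLF motif CACCC was in 6 of 6 and 4 of 6 (49.2% of all) and the cyclic AMP response element TGACGTCA in none of the 12 (1.59%). In 1 of the 12 promoters a kappa-B and a KLF match share bases, and no other pair of motifs does. The 150 bases before the start follow for the 4 genes with a kappa-B or ETS match, 5′ to 3′ on the gene's strand, with the matches in capitals.
Znrf1, chr19:56405578-56405727, plus strand, kappa-B match beginning 107 bases before the start: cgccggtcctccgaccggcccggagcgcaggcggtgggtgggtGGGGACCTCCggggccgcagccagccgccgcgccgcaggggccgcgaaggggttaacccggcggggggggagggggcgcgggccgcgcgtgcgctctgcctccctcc
Vcam1, chr2:206742784-206742933, minus strand, kappa-B match beginning 93 bases before the start: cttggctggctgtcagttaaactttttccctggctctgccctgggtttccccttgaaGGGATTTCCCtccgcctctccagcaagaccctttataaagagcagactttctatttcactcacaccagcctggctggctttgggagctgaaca
Rmnd5b, chr10:36393155-36393304, minus strand, ETS matches beginning 56 and 32 bases before the start, the first on the opposite strand: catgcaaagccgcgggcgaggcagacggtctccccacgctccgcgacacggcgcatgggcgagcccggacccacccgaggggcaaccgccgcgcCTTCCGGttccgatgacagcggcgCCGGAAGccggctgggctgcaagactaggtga
Tcta, chr8:117870113-117870262, minus strand, ETS match beginning 37 bases before the start: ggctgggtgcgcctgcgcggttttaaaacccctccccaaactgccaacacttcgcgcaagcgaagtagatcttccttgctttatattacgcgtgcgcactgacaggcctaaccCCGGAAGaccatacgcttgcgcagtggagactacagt

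The 9 called genes of opposite directions averaged unlike strata, and the interaction was called for all 9 (135 genes, 0.950%). All 9 were lower in SEW than in sham and higher in BD/SEW than in BD, by 0.07 to 0.45 for 8 of them. Sele, the endothelial selectin that captures leukocytes, was 9.46, 9.75 and 9.97 in sham and 4.31, 6.16 and 4.63 in SEW, but 11.52, 10.35 and 10.09 in BD and 11.56, 11.04 and 10.45 in BD/SEW. SEW lay below every other array, and the sham arrays lay below all BD and BD/SEW arrays. The main effect of -2.17 ± 0.34 (adjusted p = 0.0370) came from a difference of -4.69 without brain death, against 0.36 after it. Vcam1, an adhesion molecule of activated endothelium whose promoter is shown above, fell by 1.36 without brain death and differed by 0.07 after it (main effect -0.64 ± 0.11, adjusted p = 0.0496).

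Birc3, an inhibitor of apoptosis induced by NF-kappa-B, was 11.57, 11.35 and 11.71 in sham, 8.13, 9.19 and 7.92 in SEW, 11.92, 11.49 and 11.83 in BD, and 11.97, 11.97 and 11.81 in BD/SEW. Its main effect was -1.48 ± 0.19 (adjusted p = 0.0245). Relb, an NF-kappa-B subunit gene, differed by -1.74 and 0.28 in the 2 strata (main effect -0.73 ± 0.11, adjusted p = 0.0301). Lmnb1 (lamin B1 of the nuclear envelope), Gas7 (a protein that shapes membranes and actin), Olah (a fatty acid thioesterase) and Rnf125 (a ubiquitin ligase, added to the named genes after its values were seen) had main effects of -0.52 to -0.99. The other probe sets of Lmnb1 gave -0.27 and 0.01.

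Mcpt8, a protease gene of basophils, had the larger difference after brain death, so that its main effect was positive, unlike that of the other 8. It was 5.99, 5.96 and 5.75 in sham, 5.40, 5.19 and 5.10 in SEW, 5.58, 5.77 and 5.54 in BD, and 7.34, 7.47 and 7.26 in BD/SEW. The SEW values lay below the lower quartile of every array (5.56 to 5.66). The mean over all arrays, 6.03, was below the 25th percentile of gene means (6.555), so the fit with dim genes left out did not include Mcpt8. The agonist arrays lay below sham by 0.67 and above BD by 1.73, so a positive main effect of 0.53 ± 0.08 (adjusted p = 0.0301) described neither stratum. It was the only one of the 20 genes called in BD/SEW against BD (adjusted p = 5.7e-05). The other gene called there was Mcpt9, also a mast cell protease family gene, with 0.82 after brain death, -0.11 without it and a main effect of 0.35 (adjusted p = 0.0570). Mcpt8 has close relatives with which its probes may share sequence.

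**Figure D3:**
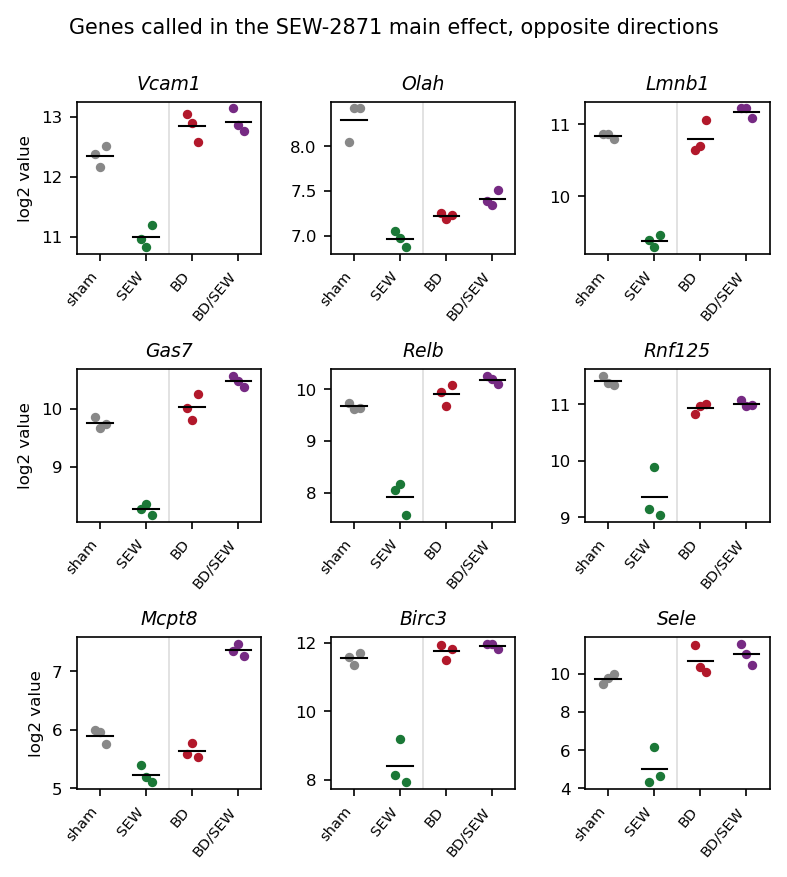
Log2 values on each array (points, with group means as bars) for the 9 called genes whose difference had opposite signs in the 2 strata. SEW lies below sham in all 9 panels, and in 8 of them BD/SEW means exceed BD means by 0.07 to 0.45, whereas for Mcpt8 the BD/SEW points, 7.26 to 7.47, lie above every other array.

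A second view of the shared direction used no p-value. In 353 genes (2.48%) all agonist arrays lay on the same side of their controls in both strata, 257 higher (1.81%) and 96 lower (0.675%). With the arrays centred on their medians there were 356, of which 136 were higher and 220 lower, so the split depends on the scaling. SEW and sham did not overlap in 3847 genes (27.1%) and BD/SEW and BD in 1770 (12.4%), and 182 genes were separated in opposite ways. Of the 353 genes, 5 were called in the main effect, Tmem204, Rmnd5b, Tcta, Icam2 and Krt19. None of the 353 was called in BD/SEW against BD, where their smallest adjusted p was 0.617 and 0.0141% of all genes were called. None had a called interaction, against 0.950% of all genes. The 353 were picked from the same values for a shared direction, which makes a called interaction unlikely. The median absolute main effect of the 353 was 0.32.

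Among these 353 genes 23 differed at least 1.5-fold in both strata, 10 higher and 13 lower, and they are named here after their values were seen. G0s2, an inhibitor of the triglyceride lipase of fat cells, was 8.20, 7.36 and 7.94 in sham, 8.90, 9.83 and 9.23 in SEW, 9.38, 8.45 and 8.94 in BD, and 9.65, 9.88 and 10.03 in BD/SEW. Its main effect was 1.21 (adjusted p = 0.0517). Ddit4, an inhibitor of mTORC1, was 11.78, 11.51 and 10.87 in sham and 11.91, 12.26 and 11.89 in SEW, and 9.45, 9.77 and 9.28 in BD and 10.76, 10.42 and 10.05 in BD/SEW. The difference was 0.63 without brain death and 0.91 after it, where the values were lower in both groups (main effect 0.77, adjusted p = 0.0655). Others higher in both were Alox5 (the 5-lipoxygenase of leukotriene synthesis), Hyal2 (a hyaluronidase), Vmp1 (an autophagy protein), Pilra (an inhibitory receptor of myeloid cells), Cklf (a chemokine-like factor), Heatr4, Nxpe2 and Prodh2.

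Many of the 13 lower genes were highest on the arrays with the highest cardiac and adipose marker means. They were selected as higher without the agonist, which by itself makes them high in sham. BD replicate 2 was the highest BD array for 10 of the 13. On all agonist arrays 5 of the 13 lay below 5.66, the highest lower quartile of any array. With the cardiac covariate 8 of the 13 kept the same sign in both strata, against 10 of the 10 higher genes. Slc6a17, a vesicular amino acid transporter of neurons and the gene with at least a 2-fold difference in both strata, was 7.96, 7.44 and 7.91 in sham, 5.07, 5.72 and 6.55 in SEW, 6.73, 8.20 and 6.75 in BD, and 5.67, 6.49 and 6.01 in BD/SEW. Its main effect was -1.58 ± 0.30 (adjusted p = 0.0580), and its other 4 probe sets gave -0.25 to -0.01. Trim16, Nr5a2 and Gpm6a, by contrast, were not highest in BD replicate 2. Trim16, a ubiquitin ligase gene, was 9.37, 9.28 and 9.31 in BD and 8.77, 9.09 and 8.07 in BD/SEW. Wt1, Sfrp5, Tmem182, Krt5 and Perm1 were the 5 that lost the shared sign. The remaining 4 lower genes were Gabrp, Calml3, Col14a1 and Gap43.

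Below 1.5-fold in at least 1 stratum, other genes separated in both strata just missed the call. Prr5l, a subunit partner of the kinase mTORC2, was 7.93, 8.20 and 7.97 in sham, 8.64, 8.78 and 8.65 in SEW, 8.08, 7.90 and 8.23 in BD, and 8.31, 8.44 and 8.42 in BD/SEW (main effect 0.49 ± 0.08, adjusted p = 0.0517). Igfbp6, a binding protein of insulin-like growth factor 2, was 9.32 to 10.09 in sham and 8.52 to 8.97 in SEW, and 9.04 to 9.56 in BD and 8.67 to 8.74 in BD/SEW (main effect -0.68 ± 0.15, adjusted p = 0.0657), and its second probe set gave the same -0.68. Podn, a matrix proteoglycan, Tcf23, a helix-loop-helix factor, Rnf217, a ubiquitin ligase, and Sema3d, a guidance cue of vessels and axons, had main effects of -0.37 to -0.57 (adjusted p 0.0598 to 0.0701). Their brain-death differences, -0.22 to -0.43, were smaller than those without brain death, -0.48 to -0.71.

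Over all 14217 genes the sign was the same in both strata in 8126 (57.2%), with 31.2% higher and 25.9% lower in both. With the arrays centred on their medians 3214 genes were higher and 4853 lower in both, so this split depends on the scaling. The differences correlated at r = 0.24 (Spearman 0.18) across genes, which are not independent replicates. The SD across genes was 0.42 without brain death and 0.22 after it. Without BD replicate 2 the correlation was -0.09 and the share of the same sign 53.8%. With the cardiac covariate and no array left out, the correlation was -0.067 and the share 56.6%. The correlation was not examined with any other single array left out. What the positive correlation came from was not tested.

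**Figure D4:**
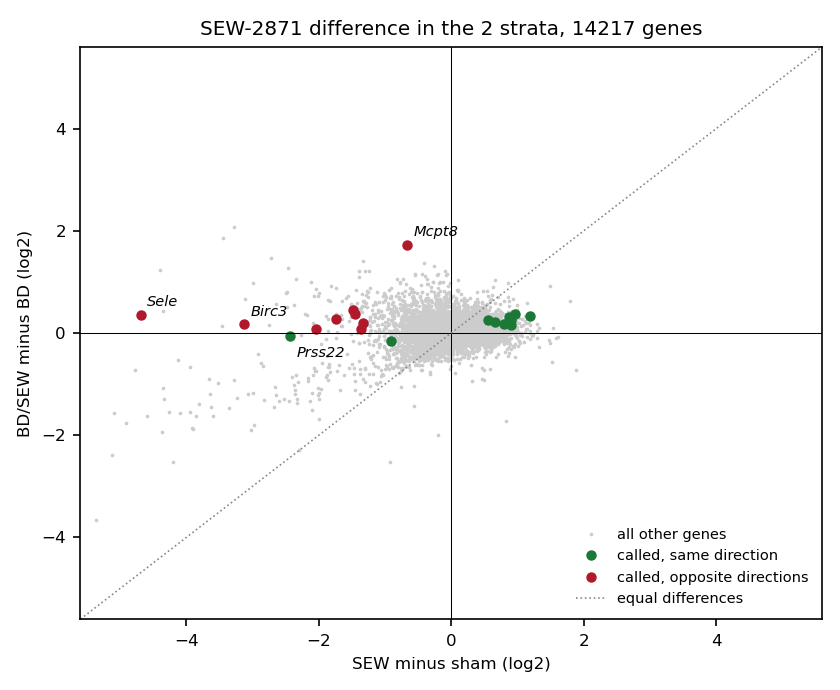
Each point is a gene, with its log2 difference SEW minus sham on the horizontal axis and BD/SEW minus BD on the vertical axis, and the dotted line marks equal differences. The 11 called genes of the same direction (green) lie close to the horizontal axis, with 0.38 or less after brain death, and Mcpt8 has the largest vertical difference of the called genes, 1.73.

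S1pr1, the gene of the receptor, was 13.29 to 13.37 in sham, 13.21 to 13.32 in BD, 13.15 to 13.37 in SEW and 13.30 to 13.37 in BD/SEW, and its main effect was 0.00 ± 0.05 (adjusted p = 0.989). Of 18 measured genes of sphingosine 1-phosphate receptors and metabolism, none was called, as for all but 0.141% of genes tested. Of the 18, 6 were higher and 4 lower in both strata, and 8 differed in sign (median main effect 0.10, against 0.01 over all genes). S1pr3, a receptor of the family, was lower in both strata (-0.47 and -0.20, main effect -0.34, adjusted p = 0.105). Spns2, the endothelial exporter of the lipid, differed by 1.18 without brain death and -0.12 after it (main effect 0.53, adjusted p = 0.105). Abca1, which also exports lipids, differed by -0.47 and -0.35, and the ceramide synthase gene Cers5 by 0.31 and 0.13. None of these 4 passed the test.

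Among 22 endothelial barrier and S1P1 signalling genes, none was called, 10 were higher and 1 lower in both strata, with a median of 0.08. Cldn5, the claudin of endothelial tight junctions, differed by 0.58 and 0.04, and Arrb1, a beta-arrestin that ends receptor signalling, by 0.38 and 0.14. The 22 genes of endothelial identity and flow response had 6 higher and 2 lower in both strata. Their median was 0.52 without brain death and -0.04 after it. Klf2, a transcription factor induced by flow, had a main effect of 0.67 (adjusted p = 0.0603) from 1.48 and -0.13. Of 18 genes of endothelial activation and coagulation, Icam2 was called higher and Sele and Vcam1 lower, and 15 did not pass. In both strata 7 of these 18 genes were higher and 3 lower, and 8 differed in sign. Among the lower were tissue factor (F3) and Angpt2, by 0.34 and 0.19 and by 0.25 and 0.18, and neither passed.

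The inflammatory lists had no shared direction. All 19 measured NF-kappa-B genes differed in sign between the strata, 18 of them lower without brain death and higher after it, against 6091 of 14217 genes with no shared sign. Birc3 and Relb were called lower and 17 did not pass (medians -0.90 and 0.27). Cytokines and chemokines (25 of 33), interferon response genes (18 of 24), immediate early genes (19 of 21) and cell cycle genes (18 of 22) mostly differed in sign too, and none was called. The 12 neutrophil markers had medians of -0.39 and 0.85 and the 10 platelet markers of -0.33 and 0.98, with 0 called. Without sham replicate 3, BD replicate 2 and SEW replicate 2 these medians were -1.35 and 0.75 for neutrophil markers and 0.17 and 0.85 for platelet markers, 8 of which were then higher in both strata.

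Lists of lung epithelium differed in how many genes had a shared sign, which 57.2% of all genes had. Of 11 ciliated cell genes 2 were higher and 2 lower in both strata and 7 differed in sign (medians -0.47 and 0.11, none called). Of 15 alveolar type 2 genes 13 were higher in both strata and none lower, with medians of 0.33 and 0.08, and none was called. Napsa, an aspartic protease that processes surfactant protein B, was 11.76 to 12.28 in sham and 12.31 to 12.64 in SEW, and 12.05 to 12.21 in BD and 12.22 to 12.60 in BD/SEW (main effect 0.36, adjusted p = 0.107). Its agonist arrays were above their controls in both strata. Sftpc differed by 0.21 and 0.08 and the mucin gene Muc1 by 0.59 and 0.28. The count of 13 was 11 without BD replicate 2, 10 with the cardiac covariate and 9 with arrays centred on their medians, where the median main effect was 0.15. Of 13 genes of alveolar type 1 cells and fluid transport 8 were higher and 2 lower in both strata, with Ager, the type 1 cell receptor RAGE, at 0.48 and 0.16 and the sodium channel subunit gene Scnn1b at 0.31 and 0.27. None of the 13 was called.

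Of 16 airway secretory genes 11 were lower and 3 higher in both strata (medians -0.56 and -0.42), and Krt19, which was higher, was the single call. The median after brain death was -0.19 without BD replicate 2, and with the cardiac covariate the medians were -0.13 and -0.18. Bpifa1, a secreted defence protein of large airways, was 14.29, 14.00 and 13.60 in sham and 6.72, 10.03 and 9.03 in SEW, and 8.41, 14.11 and 10.39 in BD and 6.68, 6.81 and 8.43 in BD/SEW. Its main effect of -4.52 was the largest of all genes and did not pass (adjusted p = 0.0580). Scgb1a1, the club cell secretoglobin of small airways, differed by 0.04 and 0.05. All 21 measured cardiac markers were lower in both strata (medians -3.35 and -1.36) and none was called. Without BD replicate 2 only 7 of the 21 were lower in both, and the median after brain death was 0.06. For 16 adipose genes the 13 that were lower in both became 3.

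Lymphocytes also carry S1P1. Of 18 T lymphocyte genes 10 were lower and 2 higher in both strata (medians -0.13 and -0.06), and none was called. Over all genes 25.9% were lower and 31.2% higher in both strata. Cd3e, a subunit of the T cell receptor complex, differed by -0.50 and -0.15, and Icos, a co-stimulatory receptor, by -0.76 and -0.14 (main effect -0.45, adjusted p = 0.0725). Of 12 B lymphocyte genes 6 were lower in both strata and 6 differed in sign. Of 16 genes of cytotoxic lymphocytes and natural killer cells 7 were higher and 1 lower in both strata. The other 8 differed in sign (list medians 0.02 and 0.20). The list means of T cell genes overlapped, at 7.05 to 7.49 with and 7.30 to 7.63 without the agonist.

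**Figure D5:**
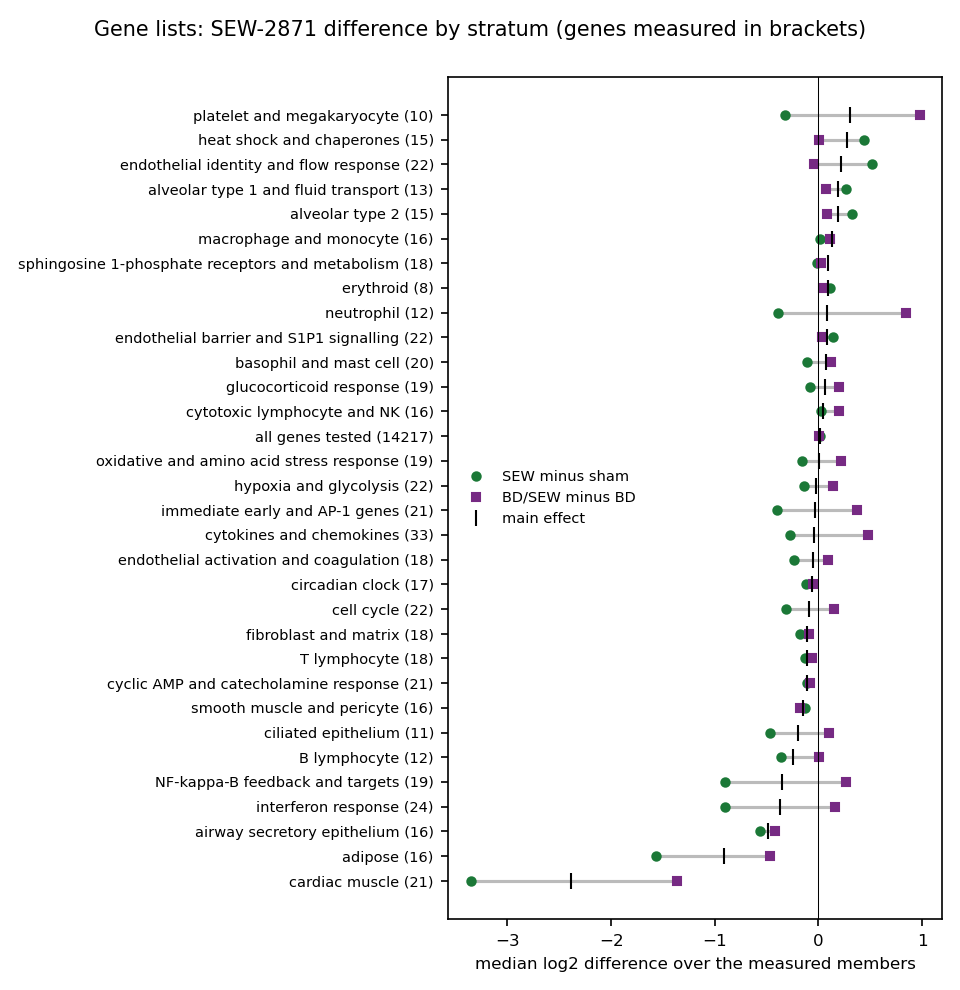
Median log2 difference of each gene list in SEW minus sham (circles) and BD/SEW minus BD (squares), with the median main effect as a vertical tick and the number of genes measured in brackets. Circle and square of the cardiac list lie at -3.35 and -1.36, those of the NF-kappa-B list on opposite sides of 0 at -0.90 and 0.27, and those of all genes at 0.02 and 0.01.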

How the data were processed

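Labelled lung RNA of 12 rats' samples, from 6 ug of total RNA each, was read on Affymetrix arrays. The authors deposited log2 values per probe set, rounded to 2 decimals. The submitters' processing notes name RMA, MAS5 and affy, with no version or role. The table held 31042 probe sets, of which 20826 had 1 gene symbol in the platform annotation, 436 several and 9780 none. Symbols of 20758 were matched to RefSeq (GRCr8, names only). The probe set with the highest mean stood for each gene, giving 14217 genes. Medians of the arrays ran from 7.34 to 7.41. Precision is limited by the number of arrays.

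A mean per group was fitted over all 12 arrays with limma 3.58.1 in R 4.3.3, with moderated variances and a mean trend. Tests were two-sided, adjusted by the Benjamini-Hochberg method over all genes, with calls at an adjusted p under 0.05. The test was checked on simulated data. The members and gene lists were chosen with earlier results of these data known. Named genes were up to 10 called genes of the same direction each way, the 5 called genes of opposite directions with the smallest interaction p, genes called in BD/SEW against BD, called members of the lists (at most 3 each), uncalled genes separated in both strata with the smallest p, and S1pr1. Other list members were named after their values were seen. Alternatives were each array left out, the replicate number as a block, array weights, cardiac and adipose means as covariates, other probe set, variance and threshold choices, and arrays centred on the median.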

Additional observations from a re-analysis of the deposited data

Results flagged for a closer look

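For 12 named genes the agonist's difference after brain death departed from its difference without it by the test of the interaction (limma, adjusted over 14217 genes). Over all genes the interaction was called for 135 (0.950%). Some of the 12 were named for a small interaction p or for a call in BD/SEW against BD, so their number is not itself a result. The interaction, the BD/SEW minus BD difference less the SEW minus sham difference, was 5.06 ± 0.68 (SE, adjusted p = 0.00773) for Sele, 3.30 ± 0.37 (adjusted p = 0.00324) for Birc3 and 2.02 ± 0.21 (adjusted p = 0.00274) for Relb. It was 1.43 ± 0.21 (adjusted p = 0.0106) for Vcam1, 2.12 ± 0.25 (adjusted p = 0.00444) for Rnf125 and 1.52 ± 0.17 (adjusted p = 0.00287) for Olah. Lmnb1 had 1.84 ± 0.16 and Gas7 1.94 ± 0.17, each with an adjusted p of 0.000706. The basophil protease gene Mcpt8 had 2.40 ± 0.16 (adjusted p = 7e-05), and the related gene Mcpt9 had 0.93 ± 0.13 (adjusted p = 0.00776), at values of 5.43 to 5.44 in BD/SEW and at most 4.82 elsewhere, below the lower quartile of every array.

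Prss22 (2.37 ± 0.35, adjusted p = 0.0106) and Znrf1 (0.77 ± 0.15, adjusted p = 0.0393) had a called interaction although both strata had the same sign.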

How the results depend on the processing

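The main effect called 20 genes, 11 of the same direction. With the replicate number as a replicate block these counts were 107 and 81, which held all 20 and all 11. The labels do not say whether the numbers pair the animals. Deviations of same-numbered arrays correlated at -0.19 to 0.38 over 18 pairs, against -0.43 to 0.29 for differently numbered arrays of different groups. Of the 12 arrays, 9 correlated best with an array of their own number. Whether arrays of the same number belong together was not tested. The 2 counts were 873 and 794 with array weights, 47 and 35 without a variance trend, 37 and 25 with dim genes left out, and 54 and 40 with probe sets averaged. They were 113 and 63 with 3 arrays left out together (sham 3, BD 2 and SEW 2), and 537 and 485 at an adjusted p under 0.1 (chosen after seeing the data). They were 9 and 4 at 1.5-fold or more. Both were 0 with the cardiac covariate, the adipose covariate, the additive model (2484 genes at an unadjusted p under 0.05) and an adjusted p under 0.01. Leaving out 1 array gave 0 to 64 and 0 to 38. The 830 genes of SEW against sham became 1556 with array weights, 24 and 9 with the cardiac and adipose covariates, 109 at an adjusted p under 0.01, 512 at 1.5-fold, 1940 at an adjusted p under 0.1, 257 on the 6 compared arrays and 321 to 1006 with 1 array left out. Centring turned 484 higher and 346 lower of SEW against sham into 312 and 345. It moved the median of all genes from 0.017 to -0.007 in SEW minus sham and from 0.013 to -0.020 in the main effect. The 2 genes of BD/SEW against BD became 5 with weights, 0 without dim genes, 4 over every probe set, 8 on the 6 compared arrays and 1 to 5 with 1 array left out. The 135 interaction calls became 464 with weights, 80 and 46 with the covariates, 418 without the 3 arrays, 24 and 271 at adjusted p under 0.01 and 0.1, and 38 to 235 with 1 array left out. The 353 separated genes became 96 with every other probe set and 395 to 951 with 1 array left out, where fewer arrays can overlap. S1pr1, never called, changed sign with weights (-0.008), centring (-0.032), the cardiac (-0.025) and adipose (-0.036) covariates and without the 3 arrays (-0.047), and ran from -0.020 to 0.035 with 1 array left out. All other genes picked as named genes, with Rnf125, kept the direction of their main effect in every setting. For the remaining genes named in the text this was not examined. The causes were not tested.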

Other observations

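Over all 31042 probe sets 23 were called in the main effect, and 7 of these had no single gene symbol, 4 of them with the same direction in both strata. They are unnamed here.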
